A study of Rattus norvegicus with 22 samples.

Results

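In all, 10 genes of the endoplasmic reticulum (ER), 7 that fold proteins or clear misfolded ones and 3 that code for transcription factors of its stress response, were followed in rat liver after ozone inhalation with and without the hepatic branch of the vagus nerve. The genes were Hspa5, Hsp90b1, Calr, Pdia4, Sdf2l1, Dnajb9, Herpud1, Xbp1, Atf6 and Creb3l3, taken by symbol from the deposited gene table. They are 10 of its 14971 rows, and all 10 are among the 12424 genes with a mean normalised read count of at least 10 that were tested. RNA of 22 livers, each from a separate rat, was sequenced in 4 groups, which were 5 rats with hepatic vagotomy and ozone, 6 with sham surgery and ozone, 6 with hepatic vagotomy and air, and 5 with sham surgery and air. The rats were operated on when 12 weeks old, recovered for 5 to 6 days, and breathed air or ozone at 1 ppm for 4 hours a day. All rats had surgery, so none of the groups is an unoperated one. Exposure lasted 1 or 2 days by the labels, which do not assign rats to either and state no strain or sex. Necropsy followed within 2 hours.

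The ER is where secreted and membrane proteins fold, and hepatocytes, which make most plasma proteins, carry a large amount of it. When unfolded proteins build up, the membrane sensors IRE1, PERK and ATF6 release the chaperone BiP and start the unfolded protein response: IRE1 splices the Xbp1 message into one that codes for an active transcription factor, ATF6 moves to the Golgi and is cut into a free transcription factor, and PERK slows translation and favours ATF4. XBP1 and ATF6 raise chaperone and degradation genes through ER stress response elements in their promoters. CREBH, the product of Creb3l3, is a liver factor released from the membrane in the same way as ATF6, and it acts on acute-phase, lipid and glucose genes. A gene-level read count does not show splicing of Xbp1 or cleavage of ATF6 and CREBH, so the values below are levels of messenger RNA alone.

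The promoter sequences below show which of the 10 genes hold a full copy of the response elements. They come from RefSeq windows of the rat build GRCr8 that run from 250 bases before to 50 bases after the start of each gene, and 9 of the 10 genes had an entry, Atf6 being the other one. The deposited table was made on the build rn6 and carries no coordinates, so the positions belong to GRCr8 only. Both strands were searched for the ER stress response element, ERSE, as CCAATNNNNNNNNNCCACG, and for the shorter ERSE-II, in which a reversed CCAAT box and CCACG stand 1 base apart. An ERSE stood in 21 of 27457 RefSeq promoter windows of the same length (0.0765%) and an ERSE-II in 15 (0.0546%). Of the 9 genes, 5 held one or the other. In the 6 lines that follow, each read 5′ to 3′ on the strand of its gene, the capitals mark the fixed letters of the motif, and a motif on the opposite strand appears as its reverse complement.
Hspa5 (ERSE), chr3:38452942-38453021, plus strand: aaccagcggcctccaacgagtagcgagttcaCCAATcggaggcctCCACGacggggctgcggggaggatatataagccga
Hsp90b1 (ERSE), chr7:23012421-23012500, minus strand: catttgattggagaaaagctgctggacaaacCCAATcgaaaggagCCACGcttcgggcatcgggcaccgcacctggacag
Hsp90b1 (ERSE), chr7:23012317-23012396, minus strand: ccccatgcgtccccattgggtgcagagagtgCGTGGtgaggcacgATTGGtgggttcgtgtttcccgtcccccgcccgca
Xbp1 (ERSE), chr14:84604527-84604606, plus strand: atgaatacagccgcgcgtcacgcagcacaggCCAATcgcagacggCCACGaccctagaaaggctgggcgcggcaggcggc
Herpud1 (ERSE-II), chr19:10614787-10614866, minus strand: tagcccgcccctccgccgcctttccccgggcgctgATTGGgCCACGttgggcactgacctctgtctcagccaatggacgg
Calr (ERSE), chr19:40213117-40213183, plus strand: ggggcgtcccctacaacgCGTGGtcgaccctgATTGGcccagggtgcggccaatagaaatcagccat
The motif of Hspa5 began 43 bases before the start, that of Xbp1 65 and that of Herpud1, an ERSE-II, 124 bases before it. Hsp90b1 held 2 copies, at 176 and 72 bases before the start, the nearer one on the opposite strand, and the copy of Calr, also on the opposite strand, lay 232 bases before it. No full copy was found in the windows of Dnajb9, Sdf2l1, Pdia4 and Creb3l3. Pdia4, the one gene of the 10 called in both ozone comparisons, is shown whole, with the CCAAT boxes of either strand in capitals. A CCAAT box stood in 37.7% of all windows, and each ERSE contains one. The third motif searched, the core TGACGTGG of the unfolded protein response element, was in 0.637% of all windows and in none of the 9.
Pdia4, chr4:78153142-78153441, minus strand: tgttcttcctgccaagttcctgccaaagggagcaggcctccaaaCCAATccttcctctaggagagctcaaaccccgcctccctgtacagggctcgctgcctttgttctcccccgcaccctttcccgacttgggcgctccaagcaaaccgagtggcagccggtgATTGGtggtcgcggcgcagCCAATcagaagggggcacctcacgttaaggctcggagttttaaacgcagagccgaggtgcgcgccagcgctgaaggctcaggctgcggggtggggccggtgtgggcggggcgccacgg
A match is a description of the letters and not of binding. Among the 8861 tested genes with a promoter entry, 25 held an ERSE or an ERSE-II, 5 of them from the 10 genes. Between ozone and air in vagotomised rats 24% of the 25 were called (1 rose and 5 fell), against 22.2% of the 8861 (1079 rose and 892 fell). In sham rats 20% were called (2 rose and 3 fell), against 29.7% (1353 rose and 1277 fell). Of the 20 outside the 10 genes, 1 rose and 4 fell in vagotomised rats and 1 rose and 3 fell in sham rats.

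Libraries held 14098863 to 21141337 reads assigned to genes, and the fewest reads of any of the 10 genes in a library were 184. The tissue matched its label: 6 of 6 hepatocyte markers were listed, with a summed normalised count of 1571877 to 2066904 in vagotomised ozone, 1606376 to 2275827 in sham ozone, 1591201 to 2204683 in vagotomised air and 1660614 to 1954220 in sham air livers. Pancreatic acinar cells and plasma cells also carry abundant ER: 0 of 6 acinar markers were listed, and the 4 of 8 plasma and B cell markers that were listed summed to 52.4 to 119 in vagotomised ozone, 63.7 to 149 in sham ozone, 94.2 to 249.8 in vagotomised air and 79.1 to 232 in sham air livers. A set of 4 libraries stood apart in 5.8S ribosomal RNA, with normalised counts of 38.1 to 179.5 against at least 342 in the others. They were replicate 1 of vagotomised ozone, replicate 3 of sham ozone and replicates 1 and 5 of vagotomised air, and none was a sham air library. In bulk tissue, fewer cells of a type and less RNA per cell cannot be told apart.

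In vagotomised rats Pdia4 and Xbp1 fell with ozone and none of the 10 genes rose. In sham rats Herpud1 rose and Pdia4 fell, while the 8 other genes, among them the main chaperones Hspa5 and Hsp90b1, did not pass the threshold. A gene counted as called at an adjusted p under 0.05 by limma, fitted to log2(normalised count + 1) over all 22 libraries with Benjamini-Hochberg adjustment over the 12424 genes, which is the source of every adjusted p below unless another tool is named. The 2 of 10 called in vagotomised rats stand beside 21.1% of all genes (11.4% higher and 9.63% lower), and the 2 of 10 in sham rats beside 28.4% (14.6% higher and 13.8% lower), so neither share is above the background. The median log2 fold change of the 10 genes was -0.14 in vagotomised rats, against -0.008 over all genes, and 0.12 in sham rats, against 0.008. These medians kept their sign under rescaling to column totals (-0.16 in vagotomised and 0.02 in sham rats), to upper quartiles (-0.19 in vagotomised and 0.04 in sham rats) and under quantile normalisation (-0.18 in vagotomised and 0.005 in sham rats). Over all genes the medians were then -0.03 and -0.09, -0.06 and -0.07, and -0.01 and -0.01, in the same order. In sham rats 5 of the 10 genes were higher and 5 lower under column totals and under quantile normalisation.

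Some markers of liver cell types also changed with ozone, and their part in the changes of the 10 genes was not tested. Of 6 hepatocyte markers, 1 rose in vagotomised rats (Apoa1, an apolipoprotein, log2 fold change 0.37, adjusted p = 0.0362) and 3 rose in sham rats. Those 3 were Tat, a tyrosine-degrading enzyme (1.35, adjusted p = 0.00281), Cyp2e1, a cytochrome P450 (0.76, adjusted p = 0.0215), and Cps1, the entry enzyme of the urea cycle (0.51, adjusted p = 0.0318). Under the 3 rescalings 0 hepatocyte markers rose in vagotomised rats and 1 to 2 in sham rats. Of 2 neutrophil markers tested, Csf3r, the receptor of granulocyte colony-stimulating factor, fell in vagotomised rats (-0.90, adjusted p = 0.0486) and in sham rats (-0.94, adjusted p = 0.0309). Its means were 12.0 normalised counts in vagotomised ozone and 11.9 in sham ozone livers, against 22.3 in both air groups. Of 8 Kupffer cell and macrophage markers, 0 were called in vagotomised rats and Cd68, a lysosomal protein, fell in sham rats (-0.64, adjusted p = 0.0491). Of 5 endothelial markers tested, Lyve1, a hyaluronan receptor, rose in vagotomised rats (0.51, adjusted p = 0.0107) and 0 were called in sham rats. Of 6 stellate cell markers, 0 were called in vagotomised rats, while in sham rats Dcn, the proteoglycan decorin, rose (1.27, adjusted p = 0.00897) and Col3a1, a collagen, fell (-0.80, adjusted p = 0.0271). The groups overlapped for each of these markers. Of the 1 plasma and B cell, 2 T and NK cell and 3 cholangiocyte markers tested, 0 were called in either.

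**Figure D1:**
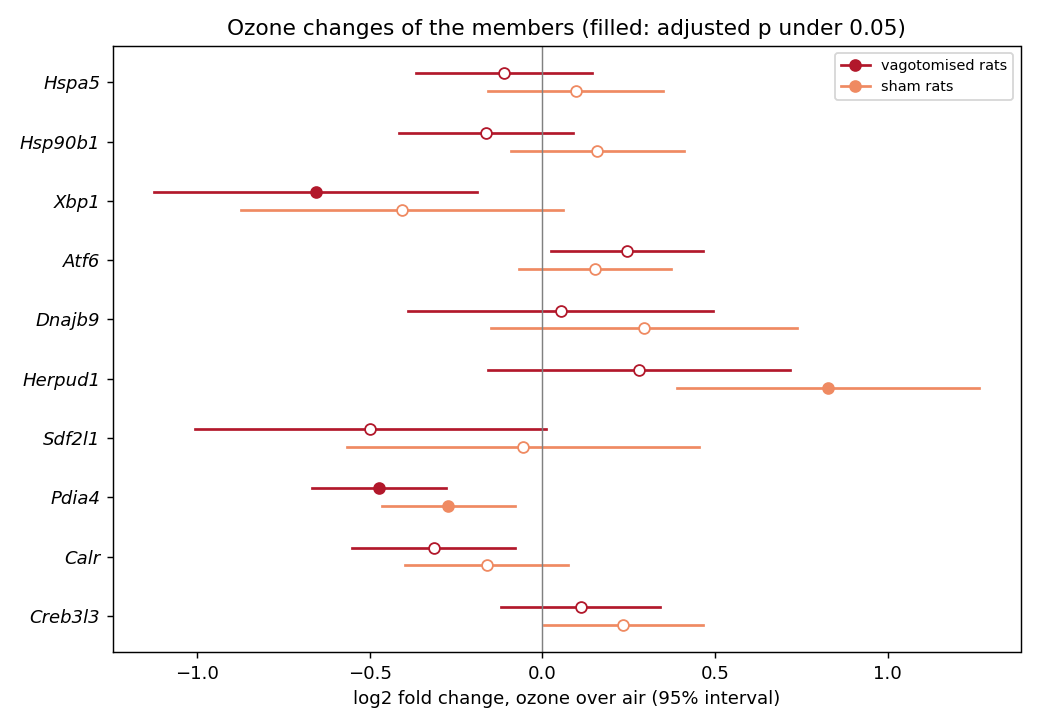
Log2 fold change of each gene between ozone and air (horizontal axis) in vagotomised rats (dark red, upper point of each pair) and sham rats (orange, lower point), with 95% intervals from limma; filled points have an adjusted p under 0.05. Herpud1 lies at 0.83 in sham rats, Pdia4 lies below 0 in both, and the intervals of Hspa5, Hsp90b1, Dnajb9 and Sdf2l1 span 0 in both.

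**Figure D2:**
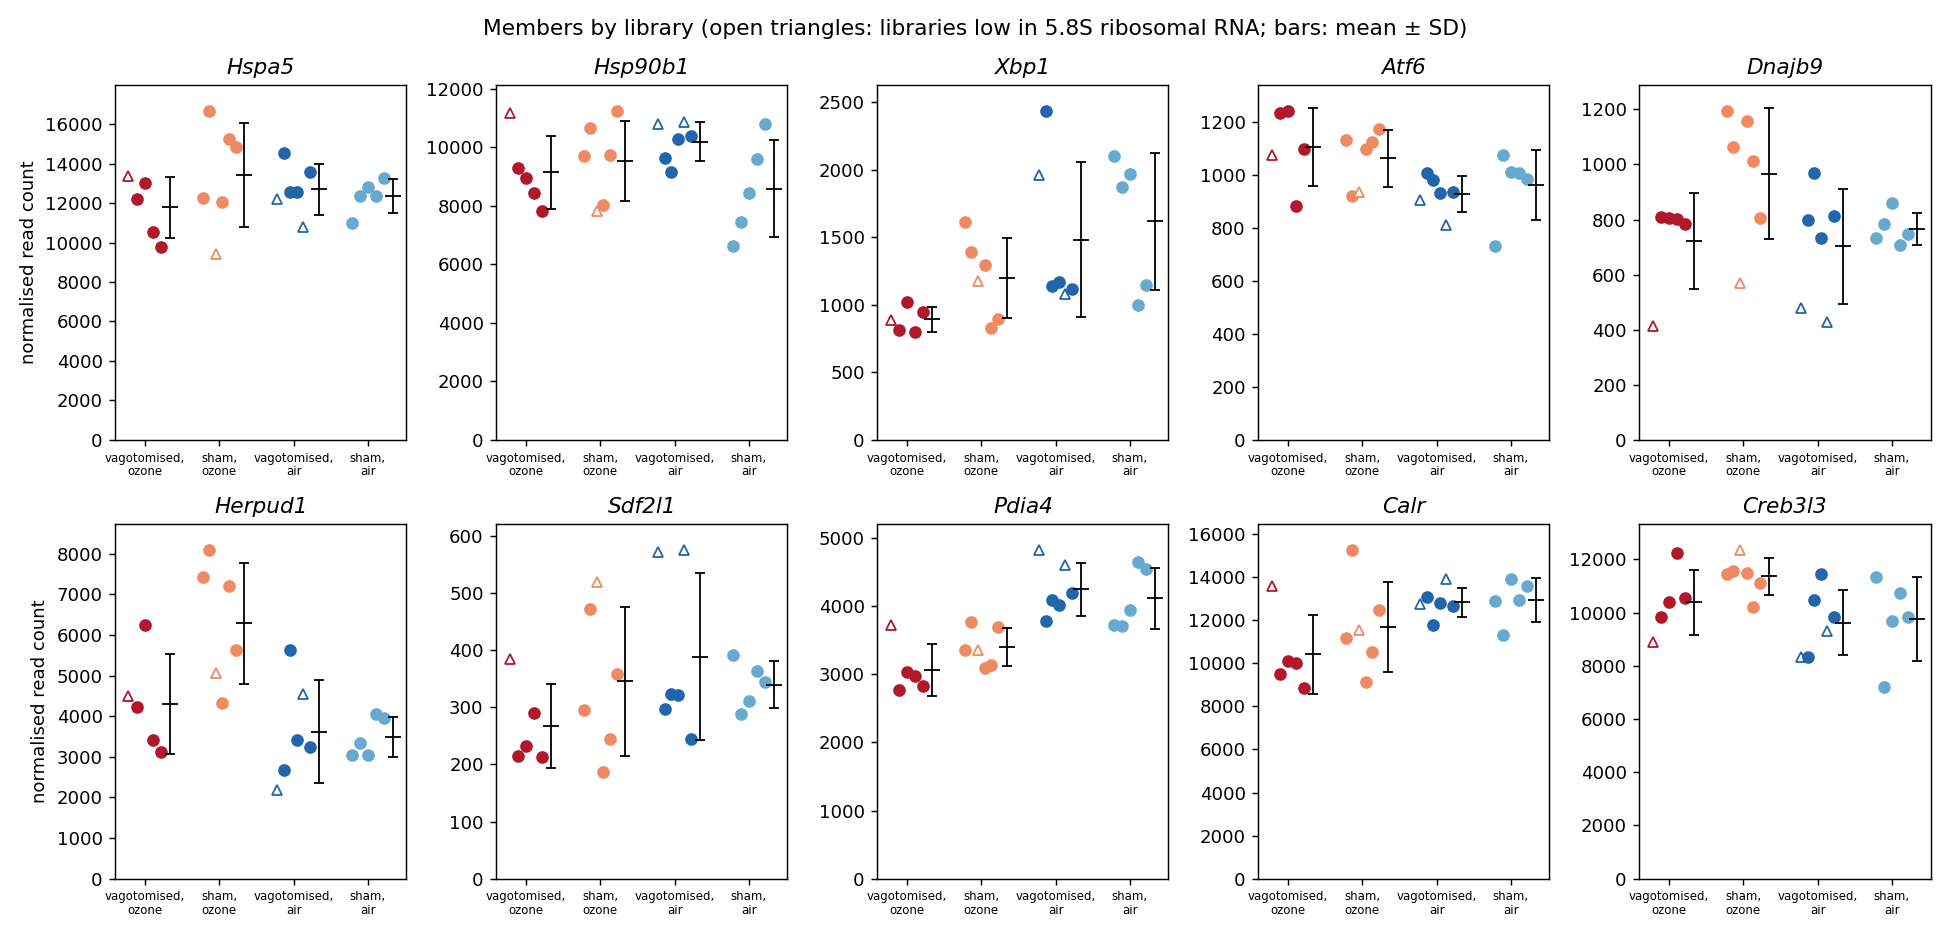
Normalised read count of the 10 genes in each library (vertical axes, starting at 0) by group, with mean ± SD as black bars beside the points; open triangles are the 4 libraries low in 5.8S ribosomal RNA. The sham ozone values of Herpud1 all lie above the sham air values, and the open triangles are the lowest points of their groups for Dnajb9.

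Herpud1, which codes for an ER membrane protein that helps assemble the machinery that retrieves misfolded proteins for degradation, was the one gene of the 10 that rose, and it did so in sham rats. Its normalised counts in vagotomised rats were 4496, 4224, 6256, 3416 and 3126 with ozone and ranged from 2177 to 5623 (median 3329) with air. These groups overlapped, since replicate 3 of the air group was above 4 of the 5 ozone libraries, and the gene did not pass (log2 fold change 0.28 ± 0.21 SE, 95% interval -0.16 to 0.72, adjusted p = 0.393). In sham rats the counts ranged from 4337 to 8096 (median 6416) with ozone and were 3048, 3330.02, 3043, 4051 and 3959.7 with air. Every sham ozone library was above every sham air library, and Herpud1 rose 1.77-fold (log2 fold change 0.83 ± 0.21 SE, 95% interval 0.39 to 1.27, adjusted p = 0.00509). That call held with each library left out in turn (adjusted p 0.00265 to 0.0159) and without the 4 libraries low in 5.8S ribosomal RNA (log2 fold change 0.88, adjusted p = 0.00206). By mean, the order was sham ozone (6291 ± 1492, SD, n = 6), vagotomised ozone (4304 ± 1228, n = 5), vagotomised air (3614 ± 1267, n = 6) and sham air (3486 ± 489, n = 5). The test did not separate neighbours in this order. Its promoter window is the one printed above with an ERSE-II.

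Pdia4 codes for ERp72, a disulphide isomerase that forms and rearranges disulphide bonds in folding proteins, and it fell in both comparisons. In vagotomised rats it had 3723, 2772, 3032, 2983 and 2833 normalised counts with ozone and 3777 to 4826 (median 4139.7) with air. The groups did not overlap, and Pdia4 fell to 0.720 of its level in air (log2 fold change -0.47 ± 0.09 SE, 95% interval -0.67 to -0.28, adjusted p = 0.000827). Each of the fits without 1 library kept the call (adjusted p 0.000177 to 0.00395). The highest vagotomised ozone value, 3723, was that of replicate 1, one of the 4 libraries low in 5.8S ribosomal RNA, and without those 4 the log2 fold change was -0.47 (adjusted p = 0.000817). In sham rats the gene had 3091 to 3765 (median 3359) counts with ozone and 3718, 3716, 3951, 4642 and 4549 with air. The ozone values lay below the air values except the highest, which was above the 2 lowest of air, and Pdia4 fell (log2 fold change -0.27 ± 0.09 SE, 95% interval -0.47 to -0.08, adjusted p = 0.0316). This call was lost with only the 2 groups in the fit (adjusted p = 0.0550) and without sham ozone replicate 4 (0.0673) or 5 (0.0663) or sham air replicate 4 (0.0986) or 5 (0.0912).

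Hspa5 codes for BiP, the Hsp70 chaperone of the ER lumen and a common marker of ER stress. In vagotomised rats its counts were 13348, 12191, 13027, 10537 and 9792 with ozone and ranged from 10771 to 14549 (median 12537) with air, with overlap and no call (log2 fold change -0.11 ± 0.12 SE, 95% interval -0.37 to 0.14, adjusted p = 0.577). In sham rats they ranged from 9439.9 to 16652 (median 13539.8) with ozone and were 10975, 12339, 12824, 12355 and 13292 with air. The ozone group spread on both sides of the air group, with the 3 highest and the lowest values of the pair, and no change was called (log2 fold change 0.10 ± 0.12 SE, 95% interval -0.16 to 0.35, adjusted p = 0.599). The 95% intervals leave room for a rise of up to 0.14 on the log2 scale in vagotomised rats and of up to 0.35 in sham rats. The sign of the small difference in sham rats turned under quantile normalisation (-0.03) and under equal column totals (-0.007).

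Hsp90b1 codes for GRP94, the ER member of the Hsp90 family, which completes the folding of integrins, Toll-like receptors and other clients. In vagotomised rats it had 11159, 9306, 8965, 8443 and 7836 counts with ozone and 9157 to 10852 (median 10336) with air (log2 fold change -0.16 ± 0.12 SE, 95% interval -0.41 to 0.09, adjusted p = 0.383). Of the 5 ozone values, 4 lay at or below 9306, near the low end of the air group, and replicate 1, at 11159, lay above all of it. In sham rats Hsp90b1 had 7819.7 to 11233 (median 9709) with ozone and 6628, 7456, 8448, 9609 and 10800.3 with air. The sham air livers spread most, with the lowest value of all 22 libraries, 6628, and another of 10800.3, and the difference was not called (log2 fold change 0.16 ± 0.12 SE, 95% interval -0.09 to 0.41, adjusted p = 0.351).

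Calr codes for calreticulin, a calcium-binding chaperone that holds glycoproteins through their sugar chains. In vagotomised rats the gene had 13600.2, 9508, 10105, 10006 and 8871 counts with ozone and 11801 to 13905 (median 12779.6) with air. All ozone libraries other than replicate 1 were below all air libraries, and the difference missed the threshold (log2 fold change -0.32 ± 0.11 SE, 95% interval -0.55 to -0.08, adjusted p = 0.0514). Without replicate 1, which is low in 5.8S ribosomal RNA, Calr fell by 0.42 on the log2 scale (adjusted p = 0.00742), and without all 4 libraries of that kind by 0.39 (adjusted p = 0.0210). DESeq2 on the recovered reads also called it (adjusted p = 0.0439), as did the 3 rescaled fits (adjusted p 0.0108 to 0.0277) and a minimum mean of 50 (0.0455). It was not called with edgeR, with the log2 of 5.8S ribosomal RNA as a covariate, or with only the groups compared. The other pseudocounts, no minimum mean, a replicate block and the number after S as a covariate gave no call either. Of the 22 fits without 1 library, 3 called it (adjusted p up to 0.142 over all 22). In sham rats Calr had 9129 to 15269 (median 11351) with ozone and 12896, 11305, 13942, 12954 and 13611 with air, with overlap and no call (log2 fold change -0.16 ± 0.11 SE, 95% interval -0.40 to 0.07, adjusted p = 0.310). Among the settings tried, it was called in sham rats under quantile normalisation (-0.31, adjusted p = 0.0280) and equal column totals (-0.27, adjusted p = 0.0492).

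Dnajb9 codes for ERdj4, a J-domain partner of BiP that also helps BiP hold IRE1 inactive. In vagotomised rats Dnajb9 had 412, 808, 805, 802 and 783 with ozone and 429.7 to 970.1 (median 764) with air (log2 fold change 0.05 ± 0.21 SE, 95% interval -0.39 to 0.49, adjusted p = 0.899). The 412 of ozone replicate 1 and the 479 and 429.7 of air replicates 1 and 5 belong to libraries low in 5.8S ribosomal RNA. Without all 4 such libraries the log2 fold change was -0.04 (adjusted p = 0.828). In sham rats the gene had 569.8 to 1193 (median 1038) with ozone and 733, 783, 860.4, 709 and 748 with air. Of the 6 ozone libraries, 4 were above all air libraries, 1 lay within them and replicate 3 was below them, and with all libraries no change was called (log2 fold change 0.29 ± 0.21 SE, 95% interval -0.15 to 0.74, adjusted p = 0.327). Replicate 3 is low in 5.8S ribosomal RNA, and Dnajb9 rose in sham rats without the 4 libraries of that kind (log2 fold change 0.44, adjusted p = 0.00171) and with the log2 of 5.8S ribosomal RNA as a covariate (0.37, adjusted p = 0.0170). No fit that left out 1 library, replicate 3 included, called it in sham rats (0.22 to 0.44, adjusted p 0.106 to 0.495). The other libraries low in 5.8S ribosomal RNA are from vagotomised rats. Leaving them out acts on this comparison only through the spread that all groups share.

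Sdf2l1 codes for a small luminal protein found in complexes of BiP with its J-domain partners. In vagotomised rats its counts were 385, 214, 233, 290.1 and 214 with ozone and ranged from 244 to 575 (median 322) with air, with overlap (log2 fold change -0.50 ± 0.25 SE, 95% interval -1.01 to 0.01, adjusted p = 0.165). In sham rats they ranged from 186 to 519 (median 326) with ozone and were 392, 287, 310.3, 364 and 344 with air, with ozone values on both sides of air (log2 fold change -0.06 ± 0.25 SE, 95% interval -0.57 to 0.45, adjusted p = 0.892). In the libraries low in 5.8S ribosomal RNA the gene stood at the other end from Dnajb9: 385 was the highest vagotomised ozone value, 519 the highest sham ozone value, and 573 and 575 the highest of vagotomised air. What sets these libraries apart was not tested.

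**Figure D3:**
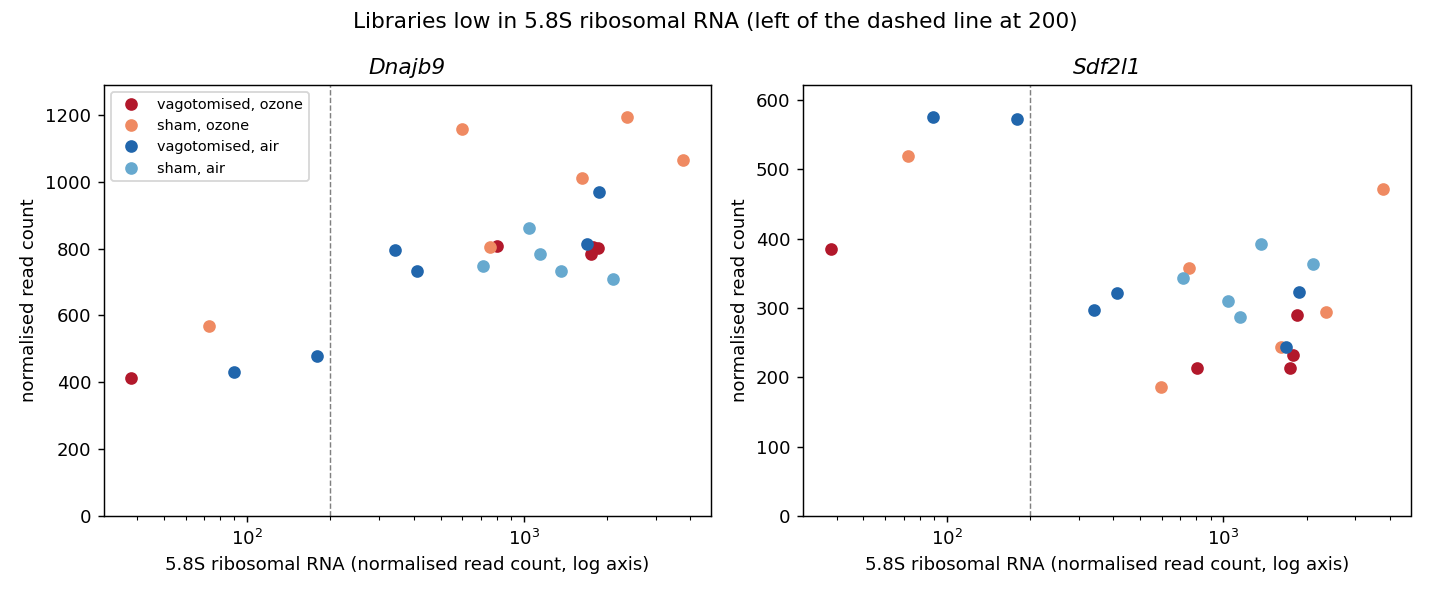
Normalised read counts of Dnajb9 (left) and Sdf2l1 (right) against that of 5.8S ribosomal RNA (horizontal, log axis) in 22 libraries coloured by group; the dashed line is at 200. The 4 libraries left of the line hold Dnajb9 values of 412 to 569.8 and Sdf2l1 values of 385 to 575.

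Xbp1, the message that IRE1 splices, fell in vagotomised rats. Its counts there were 886, 813, 1019, 797 and 951 with ozone and ranged from 1080.4 to 2435 (median 1152) with air. No ozone value reached the lowest air value, and the log2 fold change was -0.66 ± 0.23 SE (95% interval -1.12 to -0.19, adjusted p = 0.0406). The air groups were uneven: replicates 1 and 2 of vagotomised air and replicates 1, 2 and 3 of sham air lay between 1875 and 2435, all other air libraries between 1002 and 1166, and no ozone library was above 1611. Leaving out any single vagotomised ozone library (adjusted p 0.0552 to 0.0867) or vagotomised air replicate 1 (0.0951) or 2 (0.105) lost the call, as did leaving out the 4 libraries low in 5.8S ribosomal RNA (0.0937). In sham rats Xbp1 had 829.7 to 1611 (median 1236) with ozone and 2105, 1875, 1967, 1002 and 1149.5 with air, and was not called (log2 fold change -0.41 ± 0.23 SE, 95% interval -0.87 to 0.06, adjusted p = 0.189).

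Atf6 codes for the sensor that is cut in the Golgi. In vagotomised rats it had 1077, 1234, 1241, 882 and 1097 counts with ozone and 810.3 to 1007 (median 935) with air. Of the 5 ozone libraries, 4 were above all air libraries and replicate 4 was in the lower part of them, and the gene was not called (log2 fold change 0.24 ± 0.11 SE, 95% interval 0.02 to 0.46, adjusted p = 0.11), except without that replicate (0.32, adjusted p = 0.0348). In sham rats Atf6 had 922 to 1173 (median 1112) with ozone and 734, 1077, 1011, 1008 and 984 with air. All but the lowest air value, 734 in replicate 1, lay within the ozone range (log2 fold change 0.15 ± 0.11 SE, 95% interval -0.07 to 0.37, adjusted p = 0.311).

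Creb3l3, the gene of CREBH, had 8899.95, 9824, 10395, 12239.6 and 10565 counts with ozone in vagotomised rats and 8332 to 11469 (median 9569.6) with air, with wide overlap (log2 fold change 0.11 ± 0.11 SE, 95% interval -0.12 to 0.34, adjusted p = 0.536). In sham rats it had 10200.01 to 12355 (median 11465) with ozone and 11326, 7190.4, 9682, 10751 and 9830.4 with air. The ozone values were narrowly spread and lay within or above the air range, and no change was called (log2 fold change 0.23 ± 0.11 SE, 95% interval 0.005 to 0.46, adjusted p = 0.121).

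Vagotomy itself moved none of the 10 genes past the threshold. Between vagotomised and sham rats in air, limma called 0 of the 10 and 0% of all genes, and edgeR and DESeq2 on the recovered reads also called 0 of the 10 and 0 of all genes. At an unadjusted p under 0.05 there was 1 of the 10, Hsp90b1, and 387 of all genes. Hsp90b1 averaged 10184 ± 666 in vagotomised air livers and 8588 ± 1664 in sham air livers (SD, n = 6 and 5), with overlapping groups (log2 fold change 0.27 ± 0.12 SE, 95% interval 0.01 to 0.52, adjusted p = 0.9995). Between vagotomised and sham rats in ozone, limma called 0 of the 10, beside 1.34% of all genes, and edgeR and DESeq2 again 0. The 166 genes behind that share were 14 with only these groups in the fit and 19 to 217 with 1 library left out. They were 25, 60, 76 and 21 without vagotomised ozone replicate 2, 3, 4 or 5, and 20 and 19 without sham ozone replicate 1 or 2. There 1 of the 10, Herpud1, and 1862 of all genes had an unadjusted p under 0.05. Herpud1 averaged 4304 ± 1228 in vagotomised ozone livers and 6291 ± 1492 in sham ozone livers (SD, n = 5 and 6), with overlap (log2 fold change -0.56 ± 0.21 SE, 95% interval -0.99 to -0.12, adjusted p = 0.206). In ozone 9 of the 10 genes had the lower fitted mean in vagotomised rats, with a median log2 fold change of -0.17 against -0.01 over all genes, but under equal column totals Hsp90b1, and under quantile normalisation both Hsp90b1 and Creb3l3, turned to the other side. Without the 4 libraries low in 5.8S ribosomal RNA 0 of the 10 were called there too, the smallest adjusted p being that of Dnajb9 (-0.37, adjusted p = 0.0622).

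Whether ozone acted differently after vagotomy was tested as the difference between the ozone changes, vagotomised minus sham. For Xbp1, called in vagotomised rats and not in sham rats, this difference was -0.25 ± 0.32 SE (95% interval -0.91 to 0.41, adjusted p = 0.871), and for Herpud1, called in sham rats and not in vagotomised rats, -0.55 ± 0.30 SE (95% interval -1.17 to 0.07, adjusted p = 0.603). Neither passed, so these calls on one side of the threshold do not show a different response. For Pdia4 the difference was -0.20 ± 0.13 SE (95% interval -0.47 to 0.07, adjusted p = 0.691) and for Hsp90b1 -0.32 ± 0.17 SE (95% interval -0.68 to 0.03, adjusted p = 0.592). limma called 0 of the 10 and 0% of all genes, with 0 of the 10 and 1147 of all genes at an unadjusted p under 0.05, and edgeR and DESeq2 called 0 of the 10. Over all genes edgeR called 0 and DESeq2 16. Dnajb9, whose call in sham rats turned on the libraries low in 5.8S ribosomal RNA, had a difference of -0.24 ± 0.30 SE (95% interval -0.87 to 0.38, adjusted p = 0.868) with all libraries and of -0.48 (adjusted p = 0.227) without those 4. The difference was negative for 9 of the 10, Atf6 being the other, with a median of -0.22 against -0.004 over all genes. That count was also 9 of 10 under each other setting in which this difference was fitted to all or all but 4 libraries. These settings refit the same libraries, so the repeated count is not separate evidence of a different response.

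Other genes of the same pathways were counted in lists chosen by function. Counts for which no other setting is named stand beside the shares over all genes given above. Under other settings the counts over all genes moved too. Without the 4 libraries low in 5.8S ribosomal RNA, 1532 of all genes rose and 1273 fell in vagotomised rats. In sham rats these were 2369 and 2083. Also in sham rats, 1200 rose and 2340 fell under equal column totals, 1363 and 2325 under upper quartiles, and 1622 and 1844 under quantile normalisation. Of 19 genes of ER-associated degradation, the pathway of Herpud1, 5 rose and 1 fell with ozone in vagotomised rats and 6 rose and 0 fell in sham rats (median log2 fold change 0.10 and 0.17). Without the 4 libraries low in 5.8S ribosomal RNA these were 5 and 0 in vagotomised rats and 7 and 0 in sham rats. Edem1, which recognises trimmed sugar chains on misfolded glycoproteins, averaged 27167 in vagotomised ozone and 28731 in sham ozone livers, against 7745 in vagotomised air and 5581 in sham air livers. It rose by 1.88 ± 0.23 (SE) on the log2 scale in vagotomised rats (adjusted p = 4.04e-06) and by 2.40 ± 0.23 in sham rats (adjusted p = 9.42e-08), more than any of the 10 genes. Ube2g2, a ubiquitin-conjugating enzyme of the pathway, rose by 1.32 ± 0.17 (adjusted p = 8.51e-06) in vagotomised and 1.89 ± 0.17 (adjusted p = 4.88e-08) in sham rats. Selenos, a selenoprotein of the retrotranslocation complex, rose by 0.58 ± 0.11 (adjusted p = 0.000588) in vagotomised and 0.75 ± 0.11 (adjusted p = 2.21e-05) in sham rats. Edem3, a mannosidase related to Edem1, rose by 0.36 ± 0.10 in vagotomised rats (adjusted p = 0.0113), and Nploc4, a cofactor of the p97 segregase, by 0.53 ± 0.08 in sham rats (adjusted p = 4.97e-05).

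Of 25 further folding and redox genes, 2 rose and 2 fell in vagotomised rats and 2 rose and 0 fell in sham rats (medians -0.07 and 0.07). In sham rats 3 fell under equal column totals, 2 under equal upper quartiles and 4 under quantile normalisation, with 1 that rose in each. Over all genes, too, more fell than rose in sham rats under each of these rescalings. Txndc11, a thioredoxin-domain protein, rose in both (0.33 ± 0.07, adjusted p = 0.00258, in vagotomised and 0.31 ± 0.07, adjusted p = 0.00299, in sham rats). Mesdc2, a chaperone of low-density lipoprotein receptors, rose in vagotomised rats (0.47 ± 0.08, adjusted p = 0.000186) and in sham rats (0.22 ± 0.08, adjusted p = 0.0441), where the call was lost under each of the 3 rescalings, with edgeR and in 12 of the 22 fits without 1 library (adjusted p up to 0.106). Pdia5, a relative of Pdia4, fell in vagotomised rats (-0.67 ± 0.12, adjusted p = 0.000440) and was lower in vagotomised than in sham rats in ozone (-0.57 ± 0.12, adjusted p = 0.0293), without overlap in either. The second call was lost without vagotomised ozone replicate 2 (0.0558), 4 (0.0641) or 5 (0.0765), without sham ozone replicate 1 (0.0593) or 2 (0.0790), under equal column totals (0.0563) and with only these groups (0.109). Creld2, an ER stress-inducible protein with an ERSE or ERSE-II in its promoter window, fell in vagotomised rats (-0.82 ± 0.22, adjusted p = 0.00989). Of 20 translocation genes, 1 rose and 0 fell in vagotomised rats and 0 rose and 2 fell in sham rats (medians -0.003 and 0.0006). They were Srp9 of the signal recognition particle in vagotomised rats (0.43 ± 0.14, adjusted p = 0.0364) and Ssr4 of the translocon-associated complex (-0.30 ± 0.11, adjusted p = 0.0353) and Spcs1 of the signal peptidase (-0.36 ± 0.14, adjusted p = 0.0493) in sham rats. Each of these 3 lost its call in the fit with only the groups compared, and Srp9 in 6, Ssr4 in 5 and Spcs1 in 15 of the 22 fits without 1 library. Without the 4 libraries low in 5.8S ribosomal RNA, 1 translocation gene rose and 2 fell in vagotomised rats and 2 rose and 2 fell in sham rats, and among the folding genes 1 fell in sham rats.

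Among 10 sensors and proteases related to Atf6 and Creb3l3, 1 rose and 2 fell in both vagotomised and sham rats (medians -0.09 and -0.13), and 4 fell in sham rats without the 4 libraries low in 5.8S ribosomal RNA. Creb3l2, a membrane-bound factor of the CREBH family, fell by 1.44 ± 0.17 on the log2 scale in vagotomised rats (adjusted p = 2.99e-06) and fell by 1.63 ± 0.17 in sham rats (adjusted p = 3.48e-07), without overlap in either. Creb3l1, another of that family, fell by 0.65 ± 0.14 (adjusted p = 0.00206) in vagotomised rats and fell by 0.59 ± 0.14 (adjusted p = 0.00335) in sham rats. Nfe2l1, an ER-anchored factor of proteasome genes, rose by 0.32 ± 0.09 (adjusted p = 0.0151) in vagotomised and 0.34 ± 0.09 (adjusted p = 0.00850) in sham rats, and neither call remained under equal column totals. Ern1 (IRE1), Eif2ak3 (PERK) and Atf6b were not called in either, with log2 fold changes of -0.20, -0.18 and -0.34 in vagotomised rats and -0.15, -0.11 and -0.14 in sham rats.

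Of 10 genes of the ATF4 branch downstream of PERK, 0 were called in vagotomised rats and 3 rose and 1 fell in sham rats (medians -0.05 and 0.28), and 2 rose and 2 fell in sham rats under equal column totals, under equal upper quartiles and without the 4 libraries low in 5.8S ribosomal RNA. Sesn2, a stress-induced brake on mTORC1, rose by 1.67 ± 0.29 in sham rats (adjusted p = 0.000147). Chac1, which degrades glutathione, rose by 2.04 ± 0.58 (adjusted p = 0.0109) at a mean of 13.4 normalised counts over all libraries. Trib3, a pseudokinase, rose by 0.72 ± 0.26 (adjusted p = 0.0433). It lost its call under column totals, upper quartiles, without the 4 libraries and in 8 of the 22 fits without 1 library (adjusted p up to 0.116). Atf3, a stress-induced transcription factor, fell by 2.17 ± 0.66 (adjusted p = 0.0162) with overlapping groups. That call was lost without sham air replicate 2 (0.0557), 4 (0.0505) or 5 (0.0514). In ozone, Sesn2 was lower in vagotomised than in sham rats (-1.16 ± 0.29, adjusted p = 0.0456). That call was lost in 16 of the 22 fits without 1 library (adjusted p up to 0.154), with edgeR (0.0525), under quantile normalisation (0.0538), with a replicate block (0.0532) and with only these groups (0.190). The difference between its ozone changes did not pass (-1.55 ± 0.41, adjusted p = 0.305).

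Among 10 genes known to respond to CREBH, whose own gene was not called, 0 rose and 2 fell in vagotomised rats and 4 rose and 0 fell in sham rats (medians -0.20 and 0.22), and under the 3 rescalings 2 to 3 rose in sham rats. In vagotomised rats Apoa5, which lowers plasma triglyceride, fell by 0.73 ± 0.16 (adjusted p = 0.00170) and Pck1, the entry enzyme of gluconeogenesis, fell by 0.66 ± 0.19 (adjusted p = 0.0138). In sham rats G6pc, the last enzyme of glucose release, rose by 1.05 ± 0.24 (adjusted p = 0.00242) and Apoc2, the activator of lipoprotein lipase, by 0.60 ± 0.16 (adjusted p = 0.00760). The call of Apoc2 was lost under quantile normalisation (0.0513). Cidec, a lipid droplet protein, rose there by 0.58 ± 0.17 (adjusted p = 0.0149), and this was lost without sham air replicate 3 (0.0554). Apcs, an acute-phase protein, rose there by 0.33 ± 0.12 (adjusted p = 0.0441). It was no longer called under each of the 3 rescalings and in 11 of the 22 fits without 1 library (adjusted p up to 0.115).

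**Figure D4:**
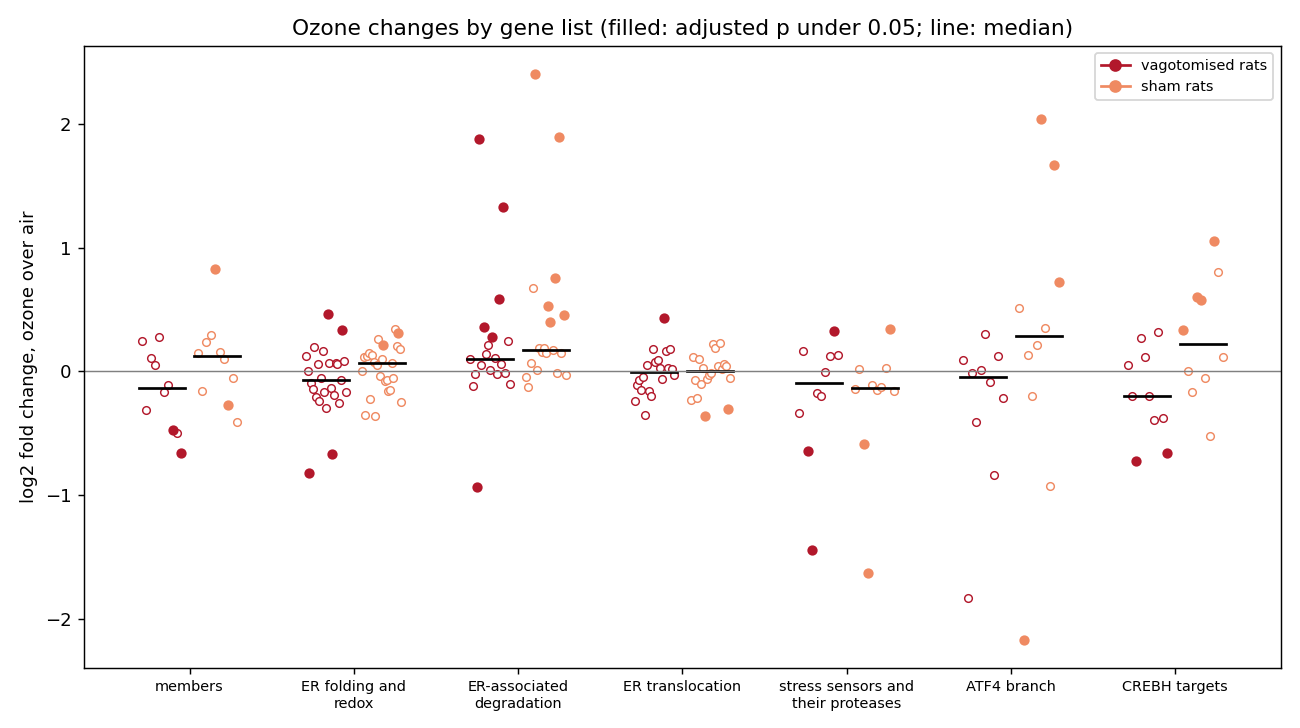
Log2 fold change between ozone and air (vertical axis) of each gene in the 10 genes (labelled members) and in the 6 other lists, in vagotomised rats (dark red, left) and sham rats (orange, right); filled points have an adjusted p under 0.05 and the black line is the median. Edem1 is the highest point among the degradation genes, at 2.40 in sham rats, and most folding and translocation genes lie near 0.

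The genes most like Hspa5 and Creb3l3 over the 22 libraries were looked for among 9638 genes with a mean of at least 50, by Pearson's r of log2 values, given as a description with no p because libraries share scaling and group. For Hspa5 they were Lrig2 (r = 0.795), Crp (0.783), S1pr3 (0.781), Stard4 (0.771) and Tnfsf13 (0.763). For Creb3l3 they were Ltbr (0.855), Eif1b (0.831), Gde1 (0.805), Nasp (0.782) and LOC108349548 (0.762). The 10 genes themselves were left out of this search, so it does not show how closely they follow each other.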

How the data were processed

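Liver RNA of 22 rats was sequenced from libraries made with the PrepX RNA-Seq kit from 10 to 20 mg of tissue, per the labels' protocols. The authors deposited a signal for each gene in each library, namely its normalised count, and the values have the form of reads divided by 1 size factor per library. The submitters' processing notes name STAR, Partek, DESeq, DESeq2 and the rat build rn6, without versions or roles. Whether counting used strand is not given in the sources used here. Divided by the smallest step of their column, all values of all 22 columns came out whole (tolerance 1e-06), which gave back the reads.

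The normalised counts were analysed as log2(count + 1) for the 12424 genes with a mean of at least 10. In R 4.3.3, the means of the 4 groups were fitted over 22 libraries by limma 3.58.1, with empirical Bayes moderation and a trend, two-sided tests and Benjamini-Hochberg adjustment over all genes tested. Fold changes are on the log2(count + 1) scale. The recovered reads were tested with edgeR 4.0.16 (quasi-likelihood, TMM), which called 2684 genes between ozone and air in vagotomised rats and 3532 in sham rats, where limma called 2619 and 3526, and with DESeq2 1.42.0. The p-values weigh each difference against the spread between libraries within groups, which all 4 groups share in the fit to 22 libraries. Each rat gave 1 library, so spread between rats and between library preparations cannot be told apart. Read counts limit precision by counting error only. Among 50 pairs of libraries of 1 group, the smallest chi-square between their reads was 9.30 per degree of freedom, so none was a copy. Replicate numbers count rats within a group.

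The 10 genes, the lists and the tests were chosen with earlier results of these data known. All 10 genes were described in each comparison. From each other list up to 4 called genes with the smallest p were named in each ozone comparison, and for Hspa5 and Creb3l3 the 5 genes most alike by Pearson's r. Sesn2 and Pdia5 between vagotomised and sham rats in ozone, and the sensors that were not called, were named after their values were seen. Alternatives were pseudocounts of 0.5 and 5, no minimum mean or one of 50, rescaling to column totals or upper quartiles, quantile normalisation, a replicate block, the number after S in the sample descriptions or log2 5.8S ribosomal RNA as covariates, leaving out the 4 libraries low in 5.8S, the 2 count tools, only the groups compared, and leaving out each library. The fits were tested on simulated data. Python 3.11.15 with matplotlib 3.10.9 drew the figures.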

Additional observations from a re-analysis of the deposited data

Results flagged for a closer look

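Of 40 gene and group combinations looked at, 4 had 1 library far from the others, and chance alone gives about 1 in 20 groups. Dnajb9 was 412 in vagotomised ozone replicate 1, against 783 to 808 in the other 4 libraries of that group. In the same library Calr was 13600.2, against 8871 to 10105 in the others, and Pdia4 was 3723, against 2772 to 3032. That library had the lowest 5.8S ribosomal RNA of all 22, at 38.1, and its part in these values was not tested. Atf6 was 734 in sham air replicate 1, against 984 to 1077 in the other 4, and that library is not among those low in 5.8S ribosomal RNA.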

How the results depend on the processing

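Over the 10 genes, direction and side of the threshold were kept in 336 of 360 recomputed values for ozone in vagotomised rats, 345 of 360 for ozone in sham rats, 323 of 360 for vagotomy in air, 357 of 360 for vagotomy in ozone and 350 of 350 for the difference of the ozone changes. With only the 2 groups compared in the fit, 1 gene was called in sham rats, and leaving out each library gave 1 to 3 calls in vagotomised rats, 1 to 2 in sham rats and 0 in the other comparisons. Every reversal was of a value that was not called, and the cause was not tested. For ozone in vagotomised rats Dnajb9 gave -0.0738 with the 5.8S covariate, -0.0428 without the 4 libraries, -0.00318 under quantile normalisation, -0.000124 under upper quartiles and -0.0777 to 0.24 leaving out 1 library. For ozone in sham rats the reversed values were those of Hspa5 (-0.0334 under quantile normalisation, -0.00703 under column totals) and Sdf2l1 (0.0108 with edgeR, 0.0216 with DESeq2, -0.19 to 0.10 leaving out 1 library). For vagotomy in air Herpud1 gave 0.0586 with edgeR, 0.0527 with DESeq2, 0.0766 with the 5.8S covariate, 0.0135 with the number after S, 0.00118 under quantile normalisation, 0.00935 under column totals, 0.0549 without the 4 libraries and -0.15 to 0.12 leaving out 1. Creb3l3 gave 0.0294 with the 5.8S covariate, 0.0288 under quantile normalisation, 0.00642 under column totals, 0.0481 without the 4 and -0.12 to 0.0462 leaving out 1. Calr gave 0.0392 and 0.00835 under quantile normalisation and column totals and -0.0577 to 0.0179 leaving out 1. Dnajb9 gave 0.0835 and 0.106, and Sdf2l1 -0.0633 and -0.196, with the 5.8S covariate and without the 4. Without the 4, Atf6 gave 0.0145 and Pdia4 -0.0281. Leaving out 1 library gave -0.00491 to 0.24 for Sdf2l1, -0.14 to 0.000742 for Atf6 and -0.00642 to 0.0818 for Hspa5. For vagotomy in ozone Hsp90b1 gave 0.0643 and Creb3l3 0.00141 under quantile normalisation, and Hsp90b1 0.0440 under column totals. Column totals moved the median of all genes by -0.103 in sham ozone against air, where 33.9% of called genes rose against 51.3% (37.0% under upper quartiles), and by 0.101 in vagotomised against sham in ozone.

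The labels do not pair rats by number, and same-numbered libraries of different groups did not deviate together more than others. Their r was -0.495 to 0.608 (median 0.0255, over 31 pairs), against -0.508 to 0.686 (median 0.0446, over 150 pairs) for different numbers. With a replicate block 2, 2, 0, 0 and 0 of the 10 genes were called in the 5 comparisons, and 2490 genes in vagotomised and 3306 in sham rats over all genes. The one direction it turned was that of Herpud1 for vagotomy in air, to 0.0122. Without the 4 libraries low in 5.8S ribosomal RNA 2805 genes were called with ozone in vagotomised and 4452 in sham rats.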
